A study of Rattus norvegicus with 7 samples.

Results

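MHC class II molecules and the invariant chain Cd74 were followed in RNA from rat colon crypts through 8 genes. These were Cd74, RT1-Da, RT1-Db1, RT1-Ba, RT1-Bb, RT1-DMa, RT1-DMb and Ciita. They were picked by symbol from a gene table of 16468 genes, and all 8 were found there. All 8 had at least 1 FPKM (fragments scaled for transcript length and for library size) in at least 1 library.

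Crypts, the epithelial pits of the colon wall, were isolated from distal and from proximal colon of Sprague Dawley rats at 14 weeks of age. Each region gave 1 RNA library, and material of 7 rats went into each pool. The animals carried no stated treatment or allele, so the groups differ in colon region. With 1 library per region no spread between rats can be measured, and every difference below compares these 2 libraries. The genes were listed because earlier results of these data were known, so their differences are given as a description, with no test. The 5 chromatin immunoprecipitation libraries of the series were not analysed here.

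MHC class II molecules present peptides from the lysosome to CD4+ T cells. An alpha and a beta chain assemble in the endoplasmic reticulum around the invariant chain, encoded by Cd74. Cd74 blocks the peptide groove and is cut down in the lysosome, where the DM dimer helps exchange its last fragment for peptide, while the DO dimer restrains DM. Transcription of the whole set depends on the coactivator encoded by Ciita, which binds no DNA itself and is recruited by the RFX complex, NF-Y and CREB at conserved X and Y boxes. B cells, dendritic cells and macrophages carry class II as a rule, and epithelial cells can do so after interferon gamma. In the rat, RT1-D is the counterpart of human HLA-DR and RT1-B that of HLA-DQ.

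The crypt label was checked against epithelial markers, which were abundant. Epcam, an epithelial adhesion molecule, stood at 1990.5 FPKM in distal and 1489.9 FPKM in proximal crypts. Krt8, a simple epithelial keratin, stood at 3436 FPKM in distal and 2328 FPKM in proximal crypts. Of 11 epithelial markers in the table only Cldn3 was listed at 0, in both libraries. Cldn3 lies on sequence without a fixed place in the rn4 build. Every gene of the lists used here on such sequence was at 0 in both libraries, so that 0 is not read as absence.

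All 8 genes were lower in the distal library, although by very different amounts. Summed over them, the level was 88.3 FPKM in distal and 229.7 FPKM in proximal crypts, 2.60-fold higher in the proximal one. Cd74 alone made 41.9% of that sum in distal and 56.9% in proximal crypts. Ratios were taken of FPKM + 1, in log2, which makes the differences of genes at low level look smaller. On that scale 5 of the 8 were at least 2-fold lower in the distal library, among them Cd74, RT1-Da, RT1-Db1, RT1-Ba and Ciita. The same was true of 3.91% of all 9847 genes with at least 1 FPKM in 1 library, and since the genes were chosen on this comparison nothing is read from the contrast. The log2 ratio (distal over proximal) had a median of -1.25 over the 8 genes and of 0.09 over all 9847. The authors' deposited table called 4 of the 8 lower in the distal library, against 2.69% of the 10099 genes it tested.

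**Figure D1:**
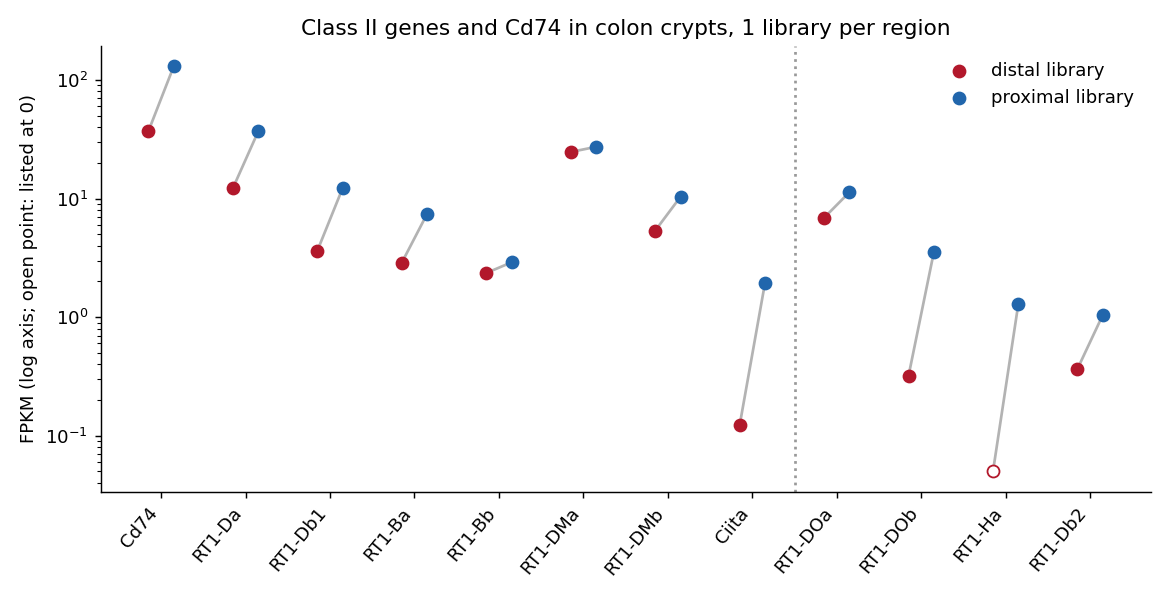
Level of each class II gene and Cd74 in FPKM (log axis) in the distal library (red, left of each pair) and the proximal library (blue, right), with 4 further class II loci right of the dotted line. Cd74 is the most abundant at 37.0 FPKM in distal and 130.7 FPKM in proximal crypts, RT1-DMa is nearly level at 24.7 FPKM in distal and 27.3 FPKM in proximal crypts, and the open point marks RT1-Ha, listed at 0 in the distal library and drawn at an arbitrary height.

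Cd74, the invariant chain, stood at 37.0 FPKM in distal and 130.7 FPKM in proximal crypts, 3.53-fold higher in the proximal one. It was more abundant than 74.2% of measured genes in the distal library and than 94.6% of them in the proximal library. Its log2 fold change in the authors' deposited table was -1.82, with a q of 1.17e-06. The test statistic of that table implies a standard error of 0.32, and with it a 95% interval from -2.44 to -1.19. It is an error of the table's own model, not of variation between rats. In the rn4 build the gene lies at 56756511 to 56765711 of chromosome 18.

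The RT1-D pair, counterpart of HLA-DR, was lower in distal crypts in both chains. RT1-Da, its alpha chain on chromosome 20 at 4636310 to 4641282 (rn4), stood at 12.2 FPKM in distal and 36.8 FPKM in proximal crypts (3.01-fold). RT1-Db1, the beta chain at 4671489 to 4681058, stood at 3.63 FPKM in distal and 12.3 FPKM in proximal crypts (3.38-fold). Both chains were thus about as far apart between the libraries as Cd74 was. In the authors' deposited table the log2 fold changes were -1.59 (implied standard error 0.42, q = 0.00494) for RT1-Da and -1.76 (implied standard error 0.57, q = 0.0379) for RT1-Db1. The alpha chain exceeded the beta chain by 3.37 times in distal and 3.0 times in proximal crypts, so the proportion of the chains, in FPKM, was similar at both ends. The proportion of Cd74 to RT1-Da was also similar, at 3.03 in distal and 3.55 in proximal crypts.

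The RT1-B pair, counterpart of HLA-DQ, was less abundant and less even. RT1-Ba, the alpha chain at 4697971 to 4702564 (rn4), stood at 2.88 FPKM in distal and 7.43 FPKM in proximal crypts (2.58-fold). Its log2 fold change in the authors' deposited table was -1.37, with an implied 95% interval from -2.62 to -0.12 and a q of 0.299, and it was not called. RT1-Bb, the beta chain at 4730559 to 4736201, stood at 2.35 FPKM in distal and 2.90 FPKM in proximal crypts. For this gene the interval in the authors' deposited table ran from -1.80 to 1.20, which covers no difference as well as one as large as that of RT1-Ba. The row of RT1-Bb shares its locus with LOC688090, which the table lists at 0 FPKM in distal and 4.45 FPKM in proximal crypts and marks as too low in data to test. The reads of this locus may therefore be split between both rows. Added together, they gave 2.35 FPKM in distal and 7.35 FPKM in proximal crypts (3.12-fold), a sum formed after the values were seen.

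The DM genes, whose products load peptide, showed smaller differences than Cd74. RT1-DMa, the alpha chain at 4843458 to 4846861 (rn4), stood at 24.7 FPKM in distal and 27.3 FPKM in proximal crypts (1.10-fold). RT1-DMb, the beta chain at 4829535 to 4836772, stood at 5.36 FPKM in distal and 10.3 FPKM in proximal crypts (1.93-fold). Neither was called in the authors' deposited table, with implied 95% intervals of -0.94 to 0.66 for RT1-DMa and -2.02 to 0.12 for RT1-DMb. The interval of RT1-DMa lies wholly above that of Cd74 and overlaps those of RT1-Da and RT1-Db1, and whether the genes differ in their change was not tested. RT1-DMa held 28.0% of the summed level of the 8 genes in distal crypts, against 11.9% in proximal crypts. In the distal library RT1-DMa exceeded RT1-Da (RT1-Da to RT1-DMa, 0.495), while in the proximal library RT1-Da was the higher of the pair (1.35).

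Ciita, the coactivator of the set, was the least abundant of the 8 in both libraries. It stood at 0.122 FPKM in distal and 1.93 FPKM in proximal crypts. Its log2 fold change in the authors' deposited table was -3.98, with an implied standard error of 0.76, an interval from -5.47 to -2.50 and a q of 1.15e-05. The distal value is close to the limit of detection: 1 read corresponded to about 0.113 FPKM in the distal library for a gene of 943 bases and to less for a longer one, so no plain fold is given. The gene lies on chromosome 10 at 5087174 to 5133418 (rn4). Its distal level was lower than that of all but 0.538% of the measured genes.

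**Figure D2:**
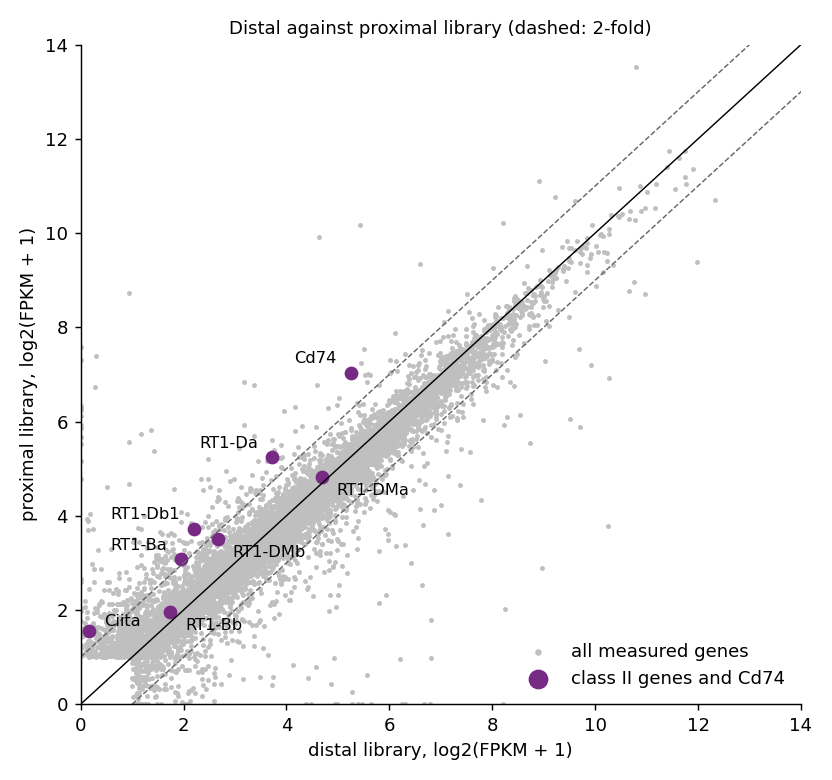
Each gene with at least 1 FPKM in 1 library, as log2(FPKM + 1) in the distal library (x axis) and the proximal library (y axis), with the 8 class II genes and Cd74 in purple, the solid line at equality and dashed lines at 2-fold. Cd74, RT1-Da, RT1-Db1, RT1-Ba and Ciita lie above the upper dashed line, and RT1-DMa and RT1-Bb lie near equality.

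By order of level in the distal library the genes ran Cd74, RT1-DMa, RT1-Da, RT1-DMb, RT1-Db1, RT1-Ba, RT1-Bb and Ciita. In the proximal library the order was Cd74, RT1-Da, RT1-DMa, RT1-Db1, RT1-DMb, RT1-Ba, RT1-Bb and Ciita. The orders differ by a swap of the D chains with the DM chains, and with 1 library per region no spread is at hand to say which neighbours differ.

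**Figure D3:**
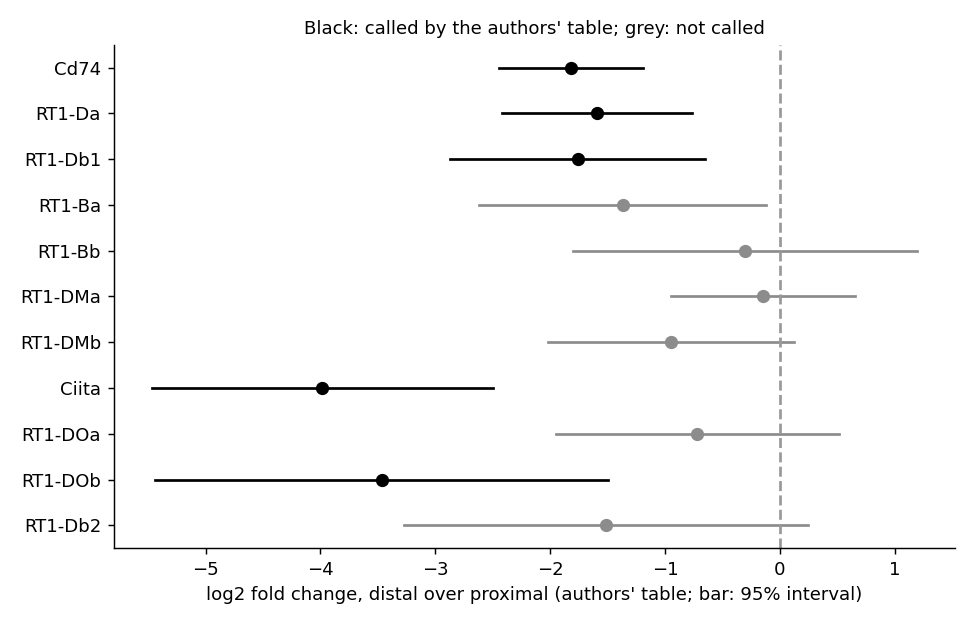
Log2 fold change of distal over proximal from the authors' deposited table (points) with its implied 95% interval (bars), black where that table calls the gene and grey where it does not. Bars of Cd74, RT1-Da, RT1-Db1, Ciita and RT1-DOb lie clear of 0 and are black, that of RT1-Ba ends at -0.12 and is grey, and the others cross 0.

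The remaining class II loci in the table were also examined. RT1-DOb, the beta chain of the DM inhibitor DO, stood at 0.320 FPKM in distal and 3.54 FPKM in proximal crypts and was called in the authors' deposited table (log2 fold change -3.47, implied standard error 1.01, q = 0.0144). Its partner RT1-DOa, the alpha chain, stood at 6.88 FPKM in distal and 11.3 FPKM in proximal crypts (1.64-fold) and was not called. The chains of DO were thus unequally far apart, at 21.5 alpha to 1 beta in distal and 3.20 to 1 in proximal crypts, with the distal beta chain below the level of about 3 reads in a gene of 943 bases (0.339 FPKM). RT1-Ha was listed at 0 in the distal library and at 1.29 FPKM in the proximal one, and RT1-Db2, a second D beta locus, stood at 0.366 FPKM in distal and 1.04 FPKM in proximal crypts. Because class II beta genes resemble each other, reads may be shared among RT1-Db1, RT1-Db2, RT1-Bb and RT1-DOb in ways the table does not show.

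Apart from Cd74 and Ciita, the members sit in 1 stretch of chromosome 20 together with genes of class I peptide processing. Across 339.6 kb from Btnl2 to Col11a2 the table held 17 genes. Of 10 class II loci, 5 were at least 2-fold lower in the distal library, against 3.91% of all measured genes. Among these 5, RT1-Da, RT1-Db1 and RT1-Ba are members, which were chosen on this comparison. The log2 ratios of all 10 ran from -1.78 to -0.14. Between RT1-DOb and RT1-DMb lie Tap2, Psmb8, Tap1 and Psmb9, which make or transport peptides for class I molecules. These 4 had log2 ratios from -0.65 to 0.07, and none reached 2-fold. Psmb8 was the furthest of them, at 20.6 FPKM in distal and 33.1 FPKM in proximal crypts, and Tap1 stood at 12.3 FPKM in distal and 11.7 FPKM in proximal crypts. Of the other genes there, Btnl2, next to RT1-Da, stood at 18.8 FPKM in distal and 18.8 FPKM in proximal crypts and Brd2, between RT1-DMa and RT1-DOa, at 81.0 FPKM in distal and 79.2 FPKM in proximal crypts.

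**Figure D4:**
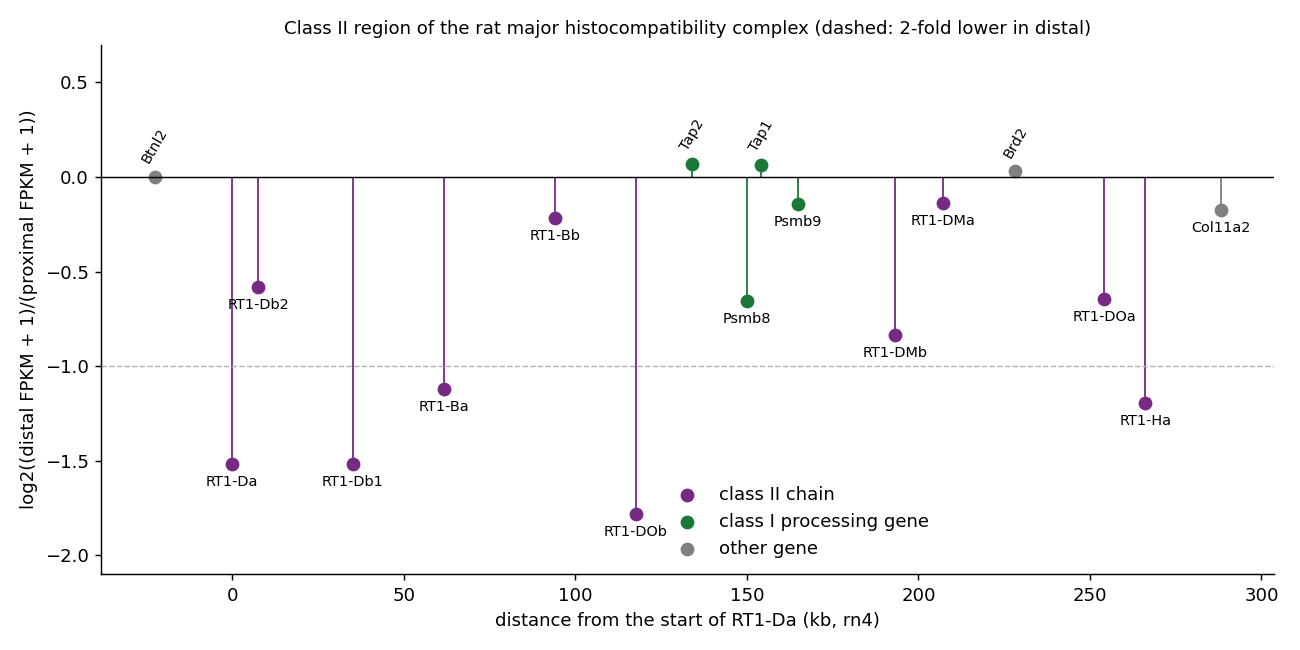
Log2 ratio of distal over proximal (FPKM + 1, y axis) for each gene of the class II region against its distance in kb from the start of RT1-Da (x axis), for class II chains in purple, class I processing genes in green and others in grey. Class II loci hang below the line, from -0.14 for RT1-DMa to -1.78 for RT1-DOb. Tap2, Tap1, Psmb9, Btnl2 and Brd2 lie within 0.15 of 0, as RT1-DMa does, and Psmb8 (-0.65) and Col11a2 (-0.17) lie further below it.

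Since Ciita acts through X and Y boxes next to class II start sites, the promoter sequences of RefSeq (GRCr8 build, 250 bases before to 50 after the start) were searched for them on both strands. Of the 8 genes, 6 had an entry, and Ciita and RT1-DMb did not. The X box was searched by its first part, AGCAAC, called the short X motif here. The long X motif is the same run followed, after 1 base of any kind, by GATG. The Y box was searched as CTGATTGG, called the long Y motif. The short Y motif leaves out its first pair of letters and reads GATTGG, and it was added after the sequences were seen. The Y core leaves out a further letter and reads ATTGG. Each short motif thus lies within its long one. The stretches below are 120 bases each, 5′ to 3′ on the gene's strand, with matches to the long and short X and Y motifs on either strand in capitals. They are shown because these boxes are the known link between Ciita and its targets.
Cd74: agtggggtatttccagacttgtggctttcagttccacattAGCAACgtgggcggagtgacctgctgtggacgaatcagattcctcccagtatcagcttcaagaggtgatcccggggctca
RT1-Da: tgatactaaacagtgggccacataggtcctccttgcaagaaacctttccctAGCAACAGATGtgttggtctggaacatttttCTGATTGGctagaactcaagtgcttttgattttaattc
RT1-Db1: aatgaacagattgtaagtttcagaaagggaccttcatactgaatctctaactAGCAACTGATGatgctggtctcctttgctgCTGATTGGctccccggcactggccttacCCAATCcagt
RT1-Ba: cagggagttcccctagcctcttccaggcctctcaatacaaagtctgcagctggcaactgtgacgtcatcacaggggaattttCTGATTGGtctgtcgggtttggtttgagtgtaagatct
RT1-Bb: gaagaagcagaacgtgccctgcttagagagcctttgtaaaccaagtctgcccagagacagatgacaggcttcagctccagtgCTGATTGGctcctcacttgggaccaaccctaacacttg
RT1-DMa: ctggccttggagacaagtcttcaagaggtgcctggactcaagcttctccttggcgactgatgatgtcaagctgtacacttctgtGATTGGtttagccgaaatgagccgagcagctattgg
RT1-DOb: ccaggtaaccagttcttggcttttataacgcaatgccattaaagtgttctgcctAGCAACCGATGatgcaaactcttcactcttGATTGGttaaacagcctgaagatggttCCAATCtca

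On GRCr8 these stretches lie at chr18:56527095-56527214 (Cd74, plus strand), chr20:4515281-4515400 (RT1-Da, plus) and chr20:4560208-4560327 (RT1-Db1, minus). The others lie at chr20:4576929-4577048 (RT1-Ba, plus), chr20:4604145-4604264 (RT1-Bb, minus), chr20:4712365-4712484 (RT1-DMa, minus) and chr20:4627572-4627691 (RT1-DOb, minus).

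The long X motif was present in RT1-Da and RT1-Db1, in 2 of the 6 promoters, and in 0.0473% of all 27457 promoters of this length. Among the further class II loci it stood in RT1-DOb and RT1-Db2, so that 4 of the 13 promoters with this motif belonged to class II loci. Of the other 9 promoters, 3 belonged to genes in the table: Snf8, at 99.6 FPKM in distal and 79.1 FPKM in proximal crypts, Adipoq, at 0.320 FPKM in distal and 0.577 FPKM in proximal crypts, and Vom1r46, listed at 0 in both.

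The short X motif was in 3 of the 6 promoters, Cd74 included, and in 14.7% of all promoters. Only exact letters were counted, so a promoter without a match may still hold an X box that differs in a letter. The stretch of RT1-Ba, for example, holds ggcaac, which departs from the short X motif in its first letter. The long Y motif was in 4 of the 6 and in 3.55% of all promoters, and the short Y motif in 5 of the 6 and in 15.3% of all. The Y core was in 6 of the 6 and in 37.7% of all. In Cd74 its only match began at -189 from the start site on the opposite strand, outside the printed stretch. The short X motif of Cd74 began at -71, so no Y core followed it. The X motif began 33 bases before the short Y motif in RT1-Da and 32 bases before it in RT1-Db1. In RT1-DOb, RT1-Db2, RT1-DOa and RT1-Ha this distance was 30, 31, 33 and 33 bases. A match describes letters in a window and is not evidence of binding, and the promoters with the X motif include the abundant RT1-Da as well as RT1-Db2, which stood at 0.366 FPKM in distal and 1.04 FPKM in proximal crypts.

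Other genes of antigen presentation and of the interferon gamma response were mostly less than 2-fold apart. The 7 lists held 71 measured genes, of which 21 were of class I presentation and 19 of the interferon gamma response. Of the 71, 4 were at least 2-fold lower in the distal library (RT1-DOb, RT1-Ha, Cd40 and Cxcl11) and 1 was higher (Cd9). Among all measured genes 3.91% were at least 2-fold lower and 3.71% at least 2-fold higher. The authors' deposited table called RT1-DOb lower and Cd9 higher, where its background was 2.69% lower and 2.73% higher.

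A list of 8 measured genes held the DNA-binding partners of Ciita and Crebbp, a further coactivator. Their median log2 ratio was 0.03, which turned negative (-0.07 and -0.13) under both rescalings of the libraries, and none was 2-fold apart. Rfx5, a subunit of the RFX complex, stood at 8.71 FPKM in distal and 11.3 FPKM in proximal crypts. Rfxap, another subunit, stood at 16.1 FPKM in distal and 10.8 FPKM in proximal crypts. Of the NF-Y subunit genes, Nfyc, which shares its locus with another gene, stood at 48.7 FPKM in distal and 47.1 FPKM in proximal crypts. Nfya stood at 16.3 FPKM in distal and 14.1 FPKM in proximal crypts.

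Lysosomal genes that cut antigen or Cd74 had a median log2 ratio of 0.23 over 9 measured genes, none of them 2-fold apart. Ctss, the cathepsin that trims Cd74, stood at 270.8 FPKM in distal and 230.4 FPKM in proximal crypts. Ctsb, another cathepsin, stood at 663 FPKM in distal and 601 FPKM in proximal crypts. In the list of surface turnover, with a median of 0.06 that turned negative under both rescalings, Cd9, a tetraspanin, was far higher in the distal library. It stood at 371.7 FPKM there and at 69.9 FPKM in the proximal library (5.32-fold; log2 fold change 2.41 and q = 9.03e-12 in the authors' deposited table). Cd9 is widely expressed in epithelium. March1, a ubiquitin ligase that removes class II from the surface, stood at 0.220 FPKM in distal and 1.04 FPKM in proximal crypts and was not called.

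Costimulatory genes were low, with 3 of 7 measured. Cd86, a ligand of Cd28, stood at 8.79 FPKM in distal and 9.89 FPKM in proximal crypts. Cd40, a receptor of B cells and dendritic cells, stood at 0.0711 FPKM in distal and 1.34 FPKM in proximal crypts and was not called in the authors' deposited table (q = 0.113). Cd80, the other Cd28 ligand, stood at 0.0811 FPKM in distal and 0.287 FPKM in proximal crypts.

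Genes of the interferon gamma response had a median log2 ratio of -0.17 over 19 measured genes, and 18 of them were less than 2-fold apart. Ifng itself was listed at 0 FPKM in distal and 0.270 FPKM in proximal crypts. Its deposited p is the one taken here as the mark of a single read in the proximal library. Irf1, a transcription factor that interferon induces, stood at 43.7 FPKM in distal and 51.7 FPKM in proximal crypts. The chemokine gene Cxcl11, which shares its locus with Cxcl10, stood at 4.57 FPKM in distal and 14.96 FPKM in proximal crypts (3.27-fold) and was not called in the authors' deposited table (q = 0.0851). Class I presentation genes had a median of 0.07 over 21 measured genes, negative under both rescalings, and none was 2-fold apart. Of its chaperone genes, Calr stood at 457 FPKM in distal and 405.5 FPKM in proximal crypts and Pdia3 at 444 FPKM in distal and 410.1 FPKM in proximal crypts.

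Most markers of lymphocytes stood at low levels in both libraries, and B cell and pan-leukocyte markers were mostly lower in the distal one. In a bulk library fewer cells of a type and less RNA per cell cannot be told apart. Of 16 measured B cell markers, 10 were at least 2-fold lower in the distal library and 0 were higher, with a median log2 ratio of -1.56. For this list and the marker lists below, the shares over all measured genes were 3.91% lower and 3.71% higher. The lists were chosen with earlier results of these data known. The authors' deposited table called 9 B cell markers lower, against 2.69% of the 10099 genes it tested. Ms4a1, the gene of CD20, stood at 0.202 FPKM in distal and 6.32 FPKM in proximal crypts. Cd79b, a chain of the B cell receptor, stood at 0.502 FPKM in distal and 8.795 FPKM in proximal crypts (17.5-fold). Cd22, Blk, Cr2, Cxcr5, Fcrla, Vpreb3 and Pou2af1 were also at least 2-fold apart in FPKM + 1. Bank1, at 0.129 FPKM in distal and 1.13 FPKM in proximal crypts, was called without reaching 2-fold on that scale. Summed over the 17 B cell markers in the table the level was 47.8 FPKM in distal and 92.8 FPKM in proximal crypts, of which Blnk, at 31.6 FPKM in distal and 28.1 FPKM in proximal crypts, and Spib, at 10.3 FPKM in distal and 11.5 FPKM in proximal crypts, made up much. Only Fcrla was at 0, in the distal library.

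Pan-leukocyte markers differed likewise: 8 of 11 measured genes were at least 2-fold lower in the distal library, against 3.91% of all measured genes, and 0 were higher. The authors' deposited table called 7 of the 8, against 2.69% of all genes it tested. Ptprc, the gene of CD45, stood at 1.44 FPKM in distal and 8.97 FPKM in proximal crypts (6.24-fold). Coro1a, a leukocyte actin regulator, stood at 5.40 FPKM in distal and 20.1 FPKM in proximal crypts (3.71-fold) and Arhgdib, a GTPase regulator of blood cells, at 4.72 FPKM in distal and 23.5 FPKM in proximal crypts (4.99-fold). The remaining 5 were Cd53, Cd48, Laptm5, Cd37 and Itgb2. The sum over 12 genes was 75.5 FPKM in distal and 137.1 FPKM in proximal crypts, with Rac2 at 52.2 FPKM in distal and 42.9 FPKM in proximal crypts within it and Vav1 at 0 in both. Like Cldn3, Vav1 lies on sequence without a fixed place in rn4, and its 0 is not read as absence.

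Among T cell markers 1 of 8 measured genes was at least 2-fold lower in the distal library in FPKM + 1. It was Zap70, a T cell receptor kinase, at 0.316 FPKM in distal and 1.66 FPKM in proximal crypts. Still, 7 of the 8 had a log2 ratio below 0, and the median was -0.69. As plain ratios, Cd3d was 3.57-fold and Cd247 3.25-fold higher in proximal crypts, both from low levels. Cd3g, the exception, was nearly level at 6.49 FPKM in distal and 6.37 FPKM in proximal crypts. The list summed to 18.9 FPKM in distal and 30.4 FPKM in proximal crypts, with no gene at 0. Of 10 measured macrophage markers 2 were at least 2-fold lower: Lyz2, a lysozyme gene that shares its locus, at 2.50 FPKM in distal and 11.1 FPKM in proximal crypts, and Tyrobp, a signalling adaptor, at 4.84 FPKM in distal and 10.9 FPKM in proximal crypts. That list summed to 144.6 FPKM in distal and 152.2 FPKM in proximal crypts, largely through Cd14 at 115.5 FPKM in distal and 101 FPKM in proximal crypts, and Cd163, Emr1 and Marco were at 0 in both libraries. Emr1 and Marco, like Cldn3 and Vav1, lie on sequence without a fixed place in rn4, so their 0 is not read as absence. C1qa, a complement gene of macrophages, was nearly level at 3.57 FPKM in distal and 3.72 FPKM in proximal crypts.

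Dendritic cell markers gave 1 of 4 measured genes at least 2-fold apart, Cd1d1, a lipid-presenting molecule, at 12.2 FPKM in distal and 3.49 FPKM in proximal crypts. Cd83 was also higher in the distal library, at 14.4 FPKM in distal and 11.0 FPKM in proximal crypts. The other 2 measured genes were lower there. Ccr7 stood at 0.160 FPKM in distal and 1.03 FPKM in proximal crypts, and Sirpa at 1.29 FPKM in distal and 1.93 FPKM in proximal crypts. The list summed to 28.5 FPKM in distal and 18.9 FPKM in proximal crypts, mostly from Cd1d1 and Cd83. The defining genes Xcr1 and Cd209a were at 0 in both libraries, and Clec9a and Batf3 were at 0 in the distal one. Plasma cell markers had 0 of 3 measured genes 2-fold apart and summed to 301.3 FPKM in distal and 287.9 FPKM in proximal crypts, nearly all from Xbp1 and Sdc1, which the epithelium also expresses. Mzb1 and Tnfrsf17 were at 0 in the distal library. Of 2 measured stromal markers, Pdgfrb stood at 0.410 FPKM in distal and 2.499 FPKM in proximal crypts, and Dcn and Lum were at 0 in both libraries. The stromal list summed to 2.80 FPKM in distal and 4.85 FPKM in proximal crypts. Epithelial markers summed to 12356 FPKM in distal and 8901 FPKM in proximal crypts, with a median log2 ratio of 0.46 over 10 genes.

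Class II genes and markers of B cells and leukocytes were therefore lower together in the distal library, and the part of these cells in the class II values was not tested.

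**Figure D5:**
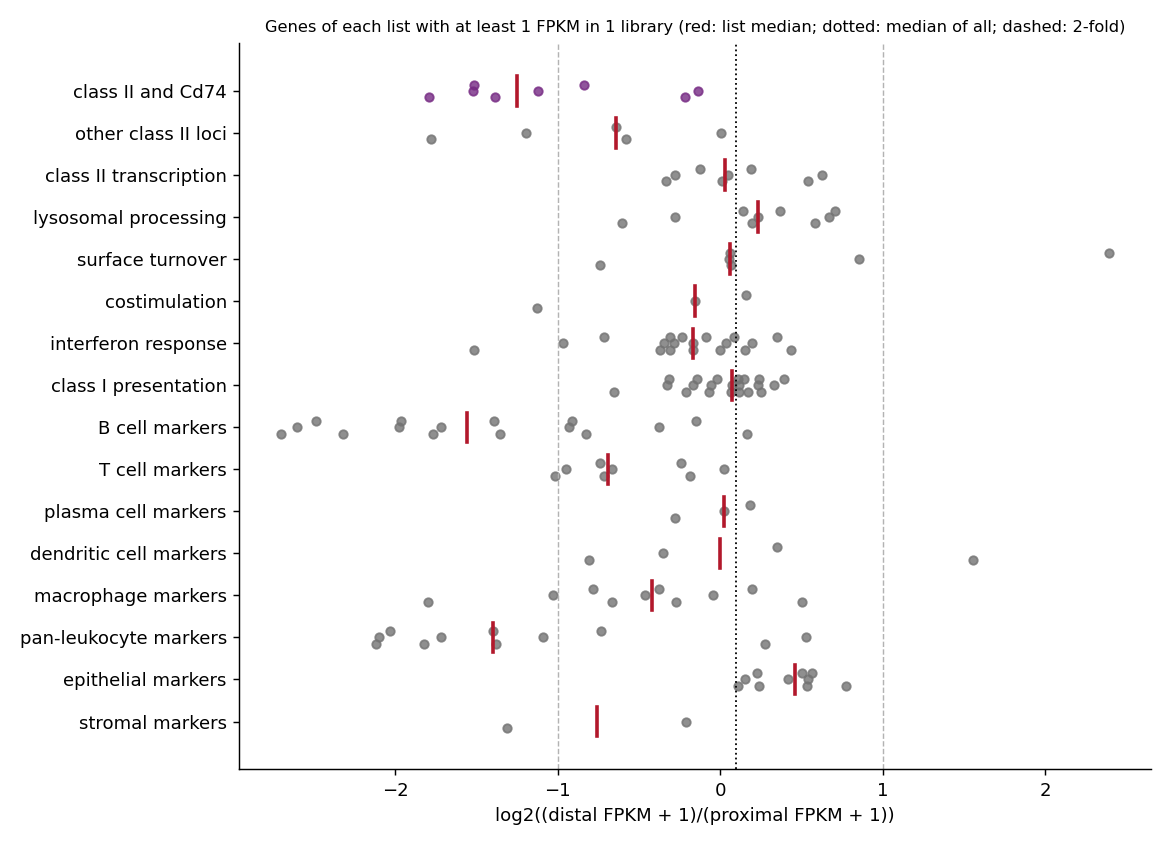
Log2 ratio of distal over proximal (FPKM + 1, x axis) for each gene with at least 1 FPKM in 1 library, by list (y axis), with the list median in red, the median of all genes (0.09) dotted and 2-fold dashed. Class II genes and Cd74 (median -1.25), B cell markers (-1.56) and pan-leukocyte markers (-1.40) lie to the left, and class I presentation (0.07) and class II transcription (0.03) lie around 0.

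The genes most like Cd74 in level at both ends were sought among all measured genes, by the distance in log2(FPKM + 1) over the 2 libraries. The 5 nearest were St3gal1, Chgb, Ptgr1, Ankh and Cth, at distances from 0.28 to 0.38. St3gal1, a sialyltransferase gene, stood at 45.03 FPKM in distal and 126.3 FPKM in proximal crypts. Chgb, a granule protein of hormone-producing cells, stood at 42.6 FPKM in distal and 150.5 FPKM in proximal crypts. Ptgr1, a prostaglandin reductase gene, stood at 46.9 FPKM in distal and 126.95 FPKM in proximal crypts, Ankh, a pyrophosphate transporter gene, at 48.0 FPKM in distal and 125.9 FPKM in proximal crypts, and Cth, an enzyme gene of cysteine synthesis, at 46.5 FPKM in distal and 113.3 FPKM in proximal crypts. With 2 libraries such likeness is shared by any gene of this level and difference.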

How the data were processed

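Per the submitters' processing notes, CASAVA, TopHat2 and the build rn4 were used for RNA (no versions). The sources used here name neither the program behind the gene table nor the scaling between libraries. The deposited values were taken as FPKM because they are not whole and differ in sum (463340 distal, 412814 proximal). The deposited p-values and q-values are the authors'. Their p equals the normal tail of the test statistic to within 2.76e-06, so log2 fold change divided by statistic gave the implied standard error.

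Of 16492 rows, 23 marked as low in data or failed and 1 repeat were left out. Loci start at 0 in the file (1186 of 1187 olfactory loci have a length divisible by 3 with 1 added), and positions are given from 1. Read totals are unknown. A single read was taken from the commonest p among genes at 0 in the other library, and came to 0.113 FPKM distal (4 olfactory genes) and 0.142 FPKM proximal (8 such genes).

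Groups followed the sample titles. Ratios were log2((distal + 1)/(proximal + 1)), computed with Python 3.11.15, pandas 2.3.3 and NumPy 2.4.6, and folds beside FPKM are plain ratios. Genes with at least 1 FPKM in 1 library counted as measured. The members and lists were chosen with earlier results of these data known. Named genes were the 8 members, the genes of each list at least 2-fold apart or called (otherwise its 2 most abundant), and the 5 nearest to Cd74. Others named were chosen after their values were seen. Alternatives were other pseudocounts, minimums, thresholds and scalings, and leaving out genes that share a locus. Some genes of the lists were not analysed or are not reported here, and 1 further motif was searched in the promoters and is not reported here.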

Additional observations from a re-analysis of the deposited data

How the results depend on the processing

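Each of the 8 genes stayed lower in the distal library under both other pseudocounts and both rescalings (0 of 32 values changed sign). That outcome was fixed in advance and says nothing about robustness. A pseudocount cannot change which library is higher, and the rescalings multiplied the distal library by 0.932 and 0.888. Rescaling to equal upper quartiles moved the median log2 ratio of all genes to -0.06, against 0.09 as deposited. A pseudocount of 5 FPKM gave 3 members at least 2-fold lower in place of 5, a median of -0.61 in place of -1.25, and -0.44 for Ciita, which reached -3.19 at 0.1 FPKM, against -1.39 as reported, since a larger pseudocount shrinks low genes. Under the other settings 4 to 6 members were at least 2-fold lower. Among the related genes, the count lower in the distal library was 4, and it became 7 with a pseudocount of 0.1 FPKM, 1 with 5 FPKM, 1 with a minimum of 5 FPKM and 10 at a threshold of 1.5-fold. The count higher there became 5 at 1.5-fold in place of 1. For B cell markers the same pseudocounts (0.1 and 5 FPKM) set the median to -2.90 and -0.58. No paired analysis was possible because each region has 1 library, and no library could be left out. Ciita, RT1-DOb and RT1-Ha rest on few reads in the distal library.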
